A study of Mus musculus with 94 samples.

Results

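On day 7 after ischemia-reperfusion injury (IRI), tubules of entospletinib-treated kidneys were compared with tubules of vehicle-treated kidneys by digital spatial profiling (DSP). Of the 94 segments of the series, 12 were tubule segments of these groups, and they were chosen by the marker, treatment code and region in their titles. Each group had 6 segments from 2 kidney sections, with 2 cortical segments and 1 medullary segment per section. All mice were C57BL/6 males with unilateral renal IRI (label IRI_D7 for vehicle and IRI_D7_E for entospletinib). Entospletinib, an inhibitor of spleen tyrosine kinase (SYK), or its DMSO vehicle was given before IRI, and injections were continued after it according to the study's methods. Formalin-fixed sections were hybridized with the GeoMx mouse Whole Transcriptome Atlas, whose probes carry tags that ultraviolet light cleaves off within an outlined area for sequencing. According to the study's methods, tubular areas were positive for pan-cytokeratin with or without CD10, and macrophage areas of the same regions of interest were positive for IBA1. Uninjured kidneys (label CTRL) served as control, also with 2 sections. The labels describe the control as contralateral kidneys and do not tie section numbers to mice in words, so p-values measure the spread between these sections, each of which was counted as 1 replicate.

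Renal tubules reabsorb most of the filtered fluid and solutes, and ischemia injures them most in the outer medulla, where oxygen supply is low and energy demand is high. Injured tubular cells lose part of their transport program and switch on injury and repair genes, and repair can either restore the tubule or leave persistent inflammation and fibrosis. SYK is a signalling kinase known mainly from leukocytes, where it acts downstream of immune receptors.

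The files listed probes by identifier and did not pair them with gene names, so tubular identity could not be checked against defining genes, and probes are described here by identifier and by lists. All 20175 probes were counted in each of the 12 segments, and none was removed by the filter on low counts. Total counts ranged from 2795876 to 8962302 per segment, with a sequencing saturation of 70.2% to 77.4%. Counts were scaled to the upper quartile of each library and are given as CPM, in which a count is divided by its library total after that scaling, so that CPM values are not plain shares of the total. Probes were called at a Benjamini-Hochberg adjusted p below 0.05 and an absolute log2 fold change above 1 in edgeR's quasi-likelihood test on the counts summed per section. A segment holds many cells, so fewer cells of a kind and less RNA per cell cannot be told apart in any of these values.

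One medullary segment stood apart. Over the 10 sections that were not of day 7, 142 probes were higher in cortical than in medullary tubules (0.704% of those tested) and 29 were higher in the medulla (0.144%). On day 7 the cortex-leaning probes held 4.70% to 6.49% of the counts in the 4 vehicle cortical segments and 7.61% to 9.27% in the 4 entospletinib cortical segments. They held 1.92% and 2.42% in the vehicle medullary segments. In the entospletinib medullary segments they held 1.28% in section 1 but 6.70% in section 2. The medulla-leaning probes held 1.05% in the former and 0.171% in the latter, which lay within the 0.0974% to 0.184% of the day 7 cortical segments. The macrophage segment of the same region of interest in section 2 also had a higher cortex-leaning share, 4.20% against 1.19% in section 1. Among the controls, the medullary segment of section 2 held 5.88% cortex-leaning and 0.274% medulla-leaning counts. Labels were kept, and the medullary calls, list medians and named probes are also given without entospletinib section 2.

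**Figure D1:**
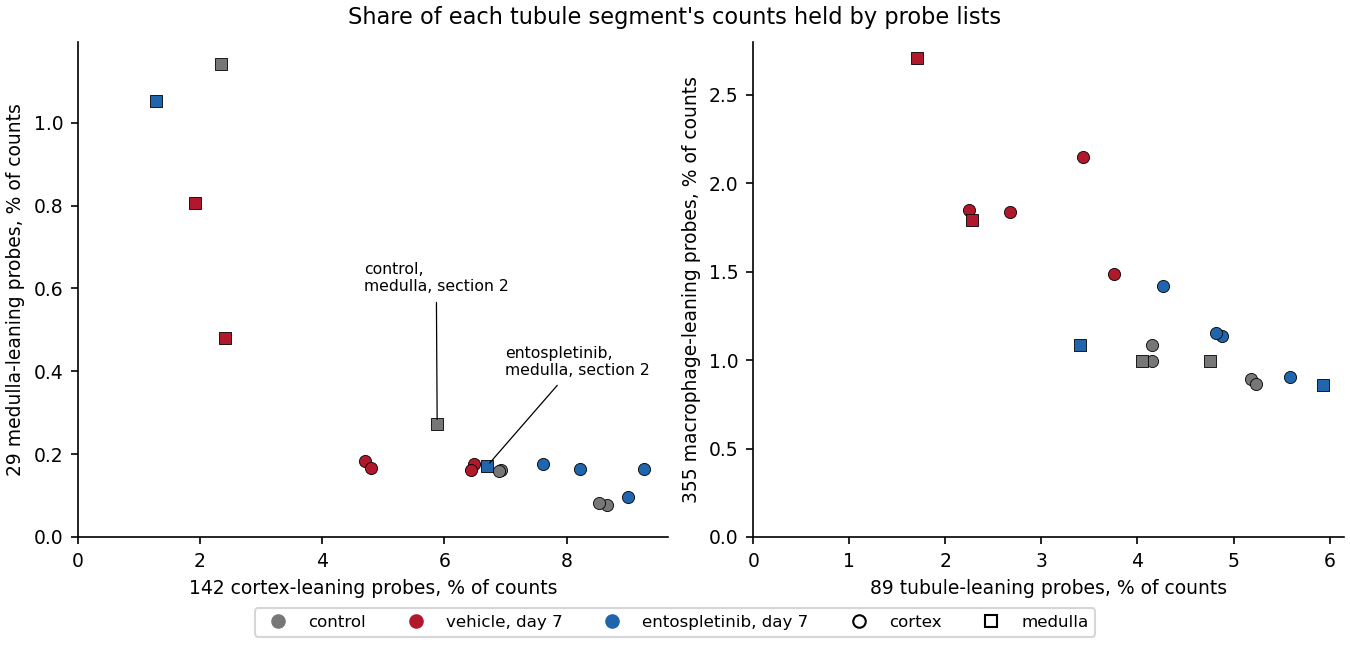
Share of each tubule segment's counts held by probe lists, in percent of all counts of the segment, with 1 point per segment, circles for cortex and squares for medulla. Left, the medullary segments of entospletinib section 2 (6.70% cortex-leaning) and control section 2 (5.88%) lie nearer to the cortical segments than the other medullary segments of their groups do. Right, vehicle segments have more macrophage-leaning and fewer tubule-leaning counts than entospletinib segments in the cortex.

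In the cortex, 12 probes were lower and 0 were higher with entospletinib (0.0595% and 0% of 20175 probes tested). Their log2 fold changes ran from -4.48 to -1.12 with a median of -1.58, while the median of all probes was 0.013. In all 12, each of the 4 entospletinib segments lay below each of the 4 vehicle segments, as it did for 4.52% of all probes. Their medullary segments, 2 against 2, did not overlap either (14.8% of all probes). At an unadjusted p below 0.05, 492 probes were higher and 429 lower. DESeq2 on the same sums called 5 higher and 46 lower, among them all 12. The calls depended on single sections. The signs could hardly change, because the 12 were chosen by this contrast and their segments did not overlap. Leaving out vehicle section 1 left 3 calls and leaving out vehicle section 2 left 5, whereas leaving out either entospletinib section left 0, with all 12 probes still negative each time.

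In the medulla, 255 probes were lower and 62 were higher with entospletinib (1.26% and 0.307% of 20175 tested). The 255 had a median log2 fold change of -1.63, reaching -5.20, and the 62 had a median of 1.59, ranging from 1.01 to 3.06. The median of all probes was 0.26 in this region, so the distribution as a whole sat above 0. With TMM normalization that median was 0.044, and 424 probes were lower and 29 higher. Leaving out vehicle section 1 gave 131 lower and 1 higher, and leaving out vehicle section 2 gave 164 lower and 7 higher. Without entospletinib section 1 there were 197 lower and 237 higher. Without entospletinib section 2, the segment that stood apart, 52 were lower and 6 higher. All 255 stayed negative and all 62 stayed positive in each of these fits, with medians of -1.57 and 1.25 when entospletinib section 2 was left out. These probes were chosen by this contrast. Their medullary segments, 2 against 2, did not overlap, as for 14.8% of all probes in the lower and 40.5% in the higher direction. Leaving out a section could therefore hardly change a sign.

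The 255 lower probes took 5.68% and 6.00% of all counts in the vehicle medullary segments, against 0.867% and 1.05% in the entospletinib segments. The control medullary segments, at 1.15% and 1.28%, lay near the entospletinib segments. The 62 higher probes held 0.256% and 0.3003% with vehicle and 0.811% and 1.101% with entospletinib, and 0.916% and 1.05% in control. In counts not scaled for depth, the median member of the 255 had 445.5 counts per vehicle segment and 213.5 per entospletinib segment. The entospletinib medullary segments were deeper, at 8962302 and 5637859 total counts against 4542901 and 4408390 with vehicle. The highest count of any of the 255 in a segment was 72463 with vehicle and 2859 with entospletinib. Abundant probes therefore weigh most in the summed shares. The 62 were abundant in uninjured medulla: their median control level was 77.6 CPM, at the 88.9th percentile of all probes. The 255 had a median control level of 31.6 CPM, at the 62.4th percentile.

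The cortical segments, which came from the same 4 sections but from other regions of interest, moved in the same directions by less. The 255 and the 62 were chosen by passing the thresholds in the medulla, so smaller cortical values can follow from that choice alone. Of the 255 probes lower in the medulla, 253 had a negative log2 fold change in the cortex, with a median of -0.78, whereas 46.7% of all probes were negative there. The 4 entospletinib cortical segments lay below the 4 vehicle ones without overlap for 200 of the 255 (4.52% of all probes), but only 10 were called in the cortex (0.0595% of all). All 62 probes higher in the medulla were positive in the cortex, with a median of 0.70. Their cortical segments did not overlap for 44 of the 62 (6.37% of all probes), and 0 were called. In the other direction, 10 of the 12 cortical probes were among the 255 (83.3% of the 12 and 3.92% of the 255), and the other two had an adjusted p of 0.0513 and 0.0551 in the medulla.

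**Figure D2:**
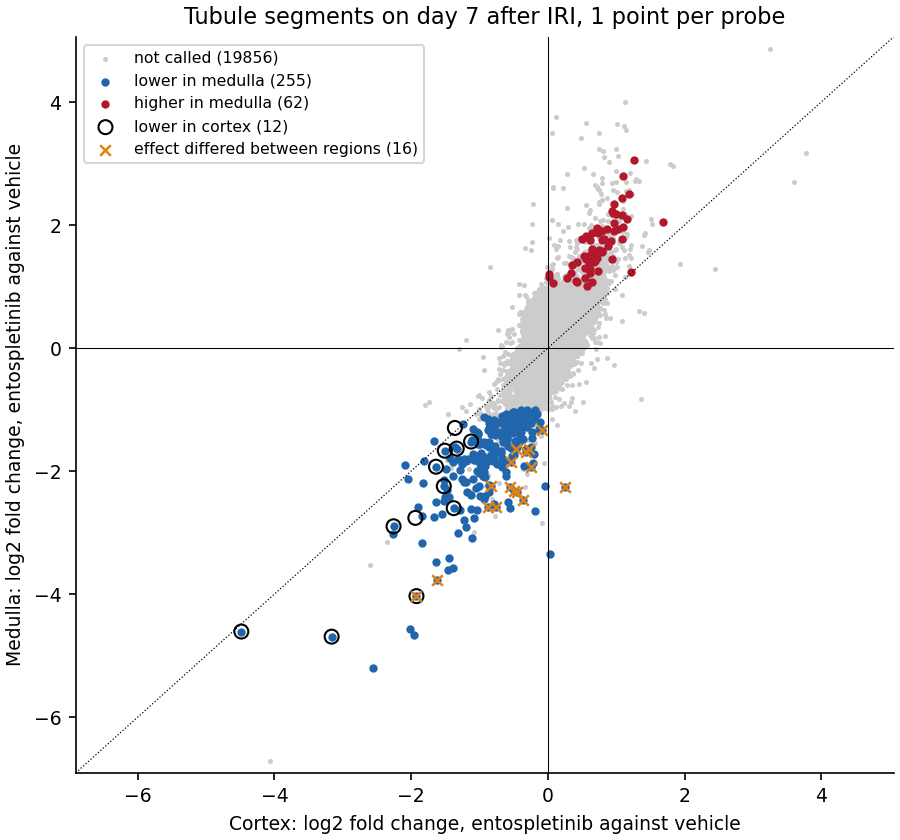
Log2 fold change between entospletinib and vehicle on day 7 in the cortex (x axis) and the medulla (y axis), 1 point per probe, with called probes coloured and the dotted line marking equal values. The 255 probes lower in the medulla, which were chosen by their medullary values, lie mostly below the dotted line. The median of their cortical values is -0.78 against -1.63 in the medulla.

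When the effect of entospletinib was compared between regions within sections, 16 probes differed at an adjusted p below 0.05 (0.0793% of 20175). In all 16 the effect was more negative in the medulla, and 15 of them were also negative in the cortex. Their median log2 fold change was -2.26 in medullary and -0.48 in cortical segments, and the difference of effects ranged from -2.44 to -1.19. None had a more positive effect in the medulla at this threshold in edgeR. At an unadjusted p below 0.05, the effect was more positive in the medulla for 2429 probes and more negative for 754. The median difference over all probes was 0.19, so this distribution as a whole also sat above 0. All 16 belonged to the 255 (1.26% of all probes), which the same medullary values chose, so this overlap is not separate evidence. Of the 16, 1 was also called in the cortex. The test rested on the sections: without vehicle section 2 or entospletinib section 2 it gave 0 probes, without entospletinib section 1 it gave 1, and without vehicle section 1 it gave 9. Without the section in the model it gave 0.

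Pooled over both regions of a section, 131 probes were lower (0.649% of 20175) and 3 higher. Leaving the medullary segment of entospletinib section 2 out of the sum gave 124 lower and 2 higher.

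RTS0081140 had the smallest adjusted p of the cortical probes. Its level was 71.0 and 76.0 CPM in the cortical segments of vehicle section 1, and 97.4 and 63.3 CPM in those of section 2. With entospletinib it was 20.5 and 17.8 CPM in section 1, and 18.5 and 20.9 CPM in section 2. All entospletinib segments lay near the control segments, which had 16.1 to 18.5 CPM, and below all vehicle segments. The section sums were 74.0 ± 2.98 CPM with vehicle and 19.3 ± 0.0566 CPM with entospletinib (SD, n = 2 sections), a log2 fold change of -1.94 (SE 0.182, edgeR adjusted p = 0.00205). In the medulla its levels were 108 and 200 CPM with vehicle and 21.6 and 23.8 CPM with entospletinib. That difference was larger but less even between sections (log2 fold change -2.76, SE 0.606, edgeR adjusted p = 0.0513). With only 1 entospletinib section in the fit, the cortical log2 fold change remained at -1.94 without section 1 and -1.93 without section 2, with adjusted p of 0.112 and 0.0843. The medullary value without entospletinib section 2 was -2.83 (edgeR adjusted p = 0.205).

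RTS0076262 had the smallest adjusted p of the medullary probes. It measured 328 and 358 CPM in the vehicle medullary segments and 27.98 and 22.4 CPM in the entospletinib ones, beside 29.3 and 25.3 CPM in control. The vehicle segments thus stood apart from both other groups, at a log2 fold change of -3.76 (SE 0.297, edgeR adjusted p = 4.47e-05) between entospletinib and vehicle. Without entospletinib section 2 it was -3.62. In the cortex the same probe ran from 45.8 to 85.1 CPM in the 4 vehicle segments and from 20.1 to 24.2 CPM in the 4 entospletinib segments. The cortical groups did not overlap, but the log2 fold change of -1.62 was not called (SE 0.313, edgeR adjusted p = 0.150). The difference between the regions passed its own test at -2.17 (SE 0.356, edgeR adjusted p = 0.0427).

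RTS0061334 and RTS0062202 had the smallest adjusted p among the probes that were higher in the medulla. RTS0061334 measured 37.4 and 41.4 CPM in the vehicle medullary segments, 114 and 193 CPM in the entospletinib segments and 115 and 107 CPM in control. Its log2 fold change was 1.96 (SE 0.277, edgeR adjusted p = 0.00191), and 1.54 without entospletinib section 2, the higher of its 2 treated segments. In the cortex it ranged from 54.7 to 98.1 CPM with vehicle and from 141 to 214 CPM with entospletinib. These cortical groups did not overlap, but the log2 fold change of 1.097 was not called (SE 0.402, edgeR adjusted p = 0.986). RTS0062202 measured 16.7 and 24.96 CPM in the vehicle medullary segments, 61.0 and 91.2 CPM with entospletinib and 96.7 and 63.7 CPM in control. Its log2 fold change was 1.87 (SE 0.279, edgeR adjusted p = 0.00284), and 1.55 without entospletinib section 2. When vehicle section 1 was left out it was 1.60 with an adjusted p of 0.0552. With 1 section left out, the medullary log2 fold change ranged from 1.54 to 2.30 for RTS0061334 and from 1.55 to 2.18 for RTS0062202. In the cortex it ran from 30.1 to 55.9 CPM with vehicle and from 59.1 to 83.4 CPM with entospletinib, again without overlap and without a call.

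**Figure D3:**
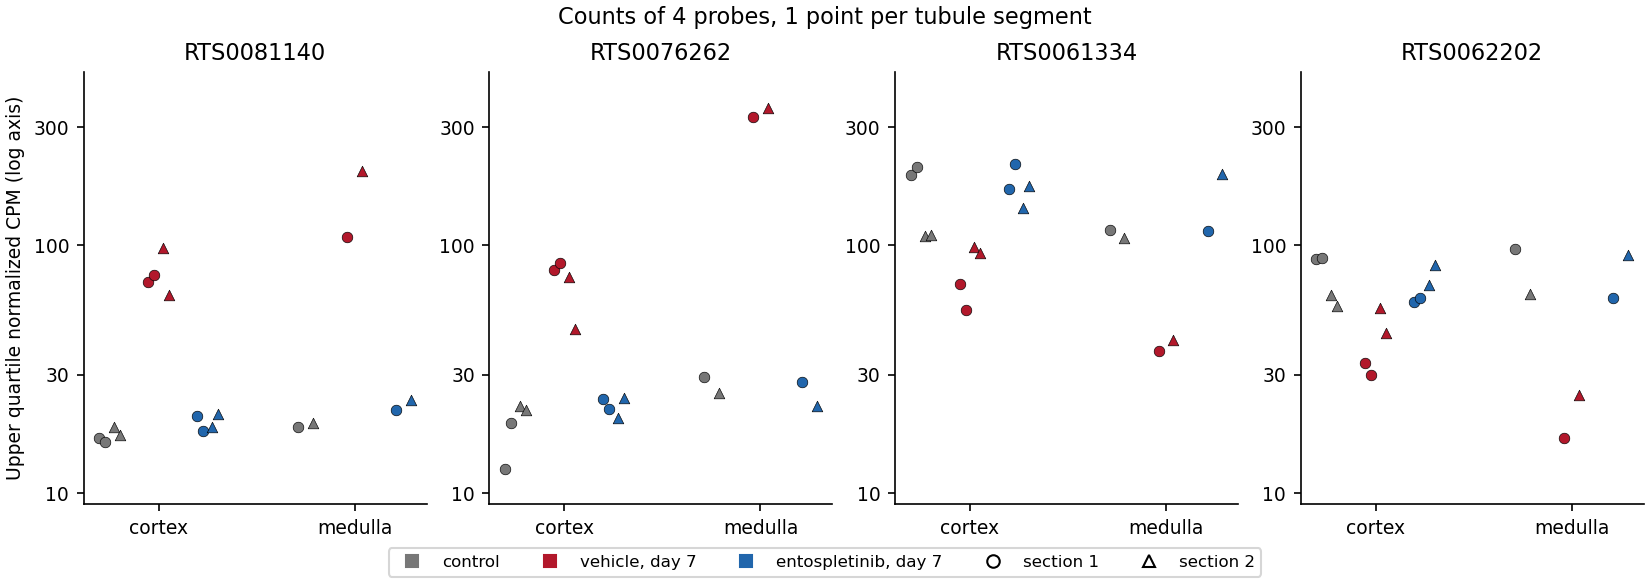
Upper quartile normalized CPM (log axis) of the 4 named probes in every control and day 7 tubule segment, with circles for section 1 and triangles for section 2. For RTS0081140 and RTS0076262 the vehicle segments lie above all entospletinib segments in both regions, and for RTS0061334 and RTS0062202 they lie below them.

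The control kidneys gave a reference for both arms. These comparisons share the day 7 and control samples with each other and with the main comparison, so only their own values are set side by side. In the medulla, vehicle against control called 249 probes higher and 98 lower (1.23% and 0.486% of 20175), whereas entospletinib against control called 0 in edgeR. At an unadjusted p below 0.05 the latter gave 348 probes, and DESeq2 called 2. In the cortex, vehicle against control called 21 higher (0.104%) and 0 lower (931 higher and 1179 lower at an unadjusted p below 0.05, and 63 and 109 by DESeq2). Entospletinib against control called 0 there, with 456 at an unadjusted p below 0.05 and 2 by DESeq2. For the 255 probes, the median medullary log2 fold change against control was 1.498 with vehicle and -0.11 with entospletinib. For the 62 it was -1.38 with vehicle and 0.12 with entospletinib, and with entospletinib section 2 left out the latter was -0.24. Leaving out control section 2, whose medullary list shares lay between those of the other control medullary segment and the control cortex, gave 124 higher and 184 lower for vehicle and 3 lower for entospletinib in the medulla. Leaving out control section 1 gave 68 higher and 19 lower, and 4 lower. In the cortex, vehicle against control gave 2 calls without control section 1 and 13 without control section 2, of which 9 were lower. It gave 5 and 6 without vehicle sections 1 and 2. In the medulla the calls for vehicle fell to 101 and 137 without them.

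Lists drawn from contrasts that used no day 7 sample were then read on day 7. The day 1 and day 14 lists came from the same fits over all 14 sections, so they share the estimate of spread with the day 7 test. The part of this in the shares called on day 7 was not tested. In the medulla, 863 probes were higher in vehicle-treated kidneys on day 14 than in control (4.28% of 20175) and 763 were lower (3.78%). On day 7, 203 of the 863 were called lower with entospletinib, or 23.5% against 1.26% of all probes, and 0 were called higher. The median log2 fold change of the 863 was -0.61, and that of all probes 0.26. Of the 763, 54 were higher with entospletinib, or 7.08% against 0.307% of all, with a median of 0.80. The lists from day 1 share the control samples with those from day 14. Of 581 that were higher on day 1 (2.88%), 124 were called lower on day 7 with a median of -0.60. Of 633 that were lower on day 1 (3.14%), 49 were called higher with a median of 0.81. The 863 held 310 of the 581 (53.4%), and the 763 held 461 of the 633 (72.8%). Without entospletinib section 2, the calls fell to 47 of the 863, 4 of the 763, 25 of the 581 and 3 of the 633, with medians of -0.57, 0.52, -0.56 and 0.47. The 4 counts were 103, 1, 62 and 1 without vehicle section 1, and 151, 6, 80 and 6 without vehicle section 2. Without entospletinib section 1 they were 145, 149, 85 and 137.

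The entospletinib comparison on day 14 used other sections, and it shares the vehicle sections of that day with the lists from vehicle against control. In the medulla, 852 probes were lower with entospletinib on day 14 (4.22%) and 828 were higher (4.1%). Of the 852, 738 were also among the 863 higher in vehicle than in control (86.6%). Of the 828, 591 were among the 763 that were lower (71.4%). The day 14 lists thus largely hold the same probes and are not separate results. On day 7 the 852 had a median log2 fold change of -0.66 with 210 called lower, and the 828 had a median of 0.82 with 52 called higher. Neither list had a call in the opposite direction. Without entospletinib section 2, the medians were -0.61 and 0.55, with 49 and 4 called. The called counts were 104 and 1 without vehicle section 1, where the median of the 852 was -0.43, 153 and 6 without vehicle section 2, and 149 and 145 without entospletinib section 1. Read the other way, 82.4% of the 255 and 83.9% of the 62 were called in the same direction on day 14. In the cortex, the 318 probes lower with entospletinib on day 14 (1.58%) had a median of -0.72 on day 7, all 318 were negative and 11 were called lower, against 0.0595% of all probes. When either entospletinib section was left out 0 of these were called, and 2 and 4 were called without vehicle sections 1 and 2. The 69 that were higher (0.342%) had a median of 0.73, with 68 positive and 0 called. The 470 probes higher in vehicle-treated kidneys than in control on day 14 in the cortex (2.33%) had a median of -0.56 on day 7 and included all 12 called probes, and the 125 that were lower after injury (0.62%) had a median of 0.58. Leaving out any 1 of the 4 day 7 sections kept the sign of each of these list medians.

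**Figure D4:**
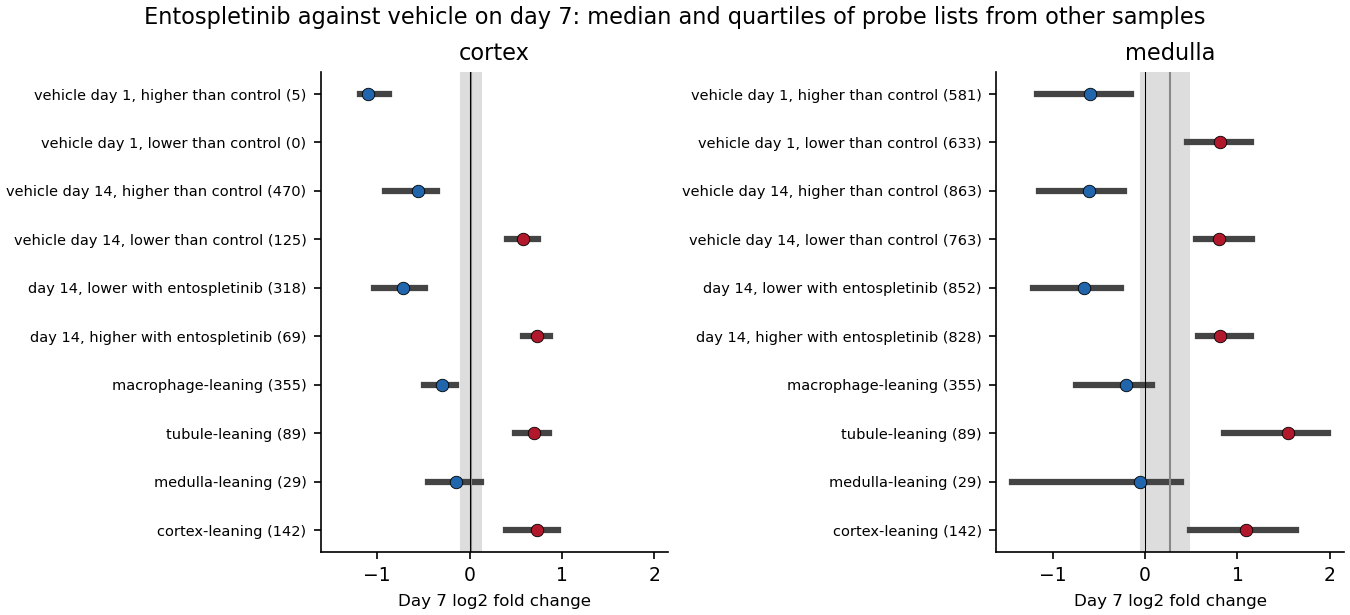
Day 7 log2 fold change between entospletinib and vehicle for probe lists from contrasts that used no day 7 sample, with the median as a point, the quartiles as a bar and the number of probes in parentheses. The grey band and line give the quartiles and median of all probes, 0.013 in the cortex and 0.26 in the medulla. Lists higher after injury or lower with entospletinib on day 14 have medians between -0.72 and -0.56 on day 7, except for the 5 cortical probes higher on day 1 at -1.09, and the opposite lists lie between 0.58 and 0.82.

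Over the whole course, the medullary probes were already displaced on day 1. Relative to the control mean, the median of the 255 in the medulla was 0.91 and 1.15 on the log2 scale in the vehicle sections of day 1, 1.52 and 1.46 on day 7 and 1.63 and 1.69 on day 14. With entospletinib it was 0.35 and 0.76 on day 1, -0.0080 and -0.19 on day 7 and -0.0092 and -0.0093 on day 14. The entospletinib sections were thus above control on day 1 and near it on days 7 and 14. The 62 mirrored this course, at -1.52 and -1.79 with vehicle on day 1 and -0.64 and -0.98 with entospletinib. On day 7 they were at -1.49 and -1.32 with vehicle, and at -0.22 and 0.40 with entospletinib. The day 7 contrast chose these probes, with its spread estimated over all 14 sections.

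**Figure D5:**
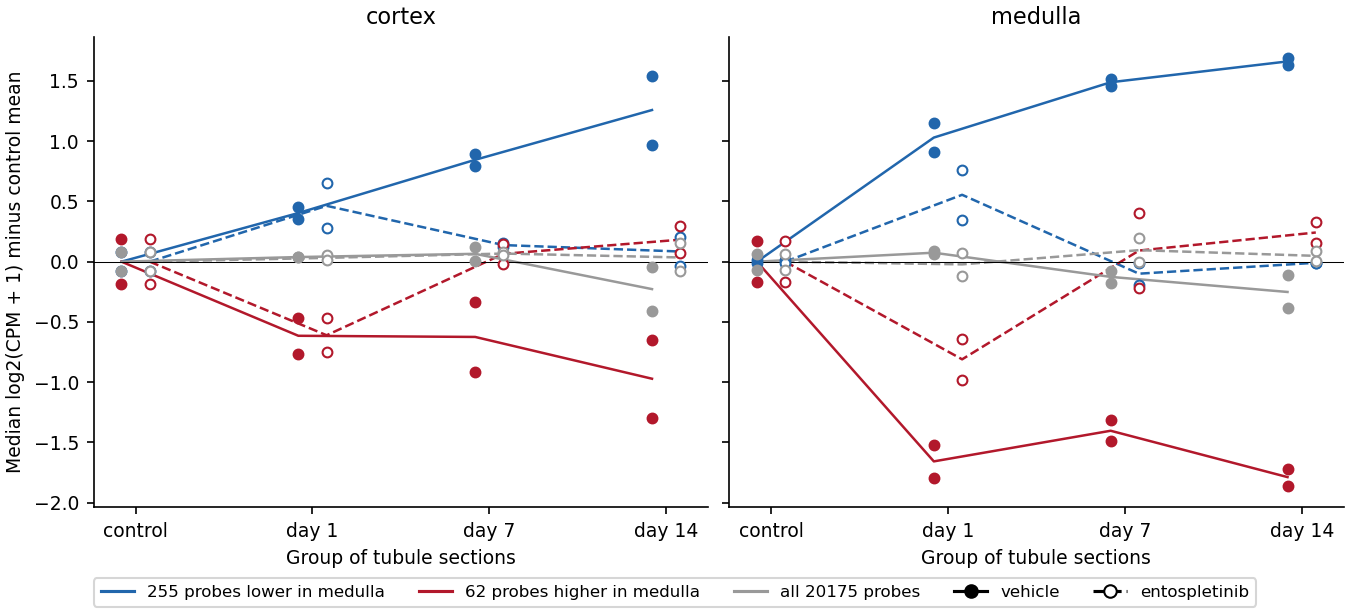
Median log2(CPM + 1) of the probes called in the medulla on day 7, minus the mean of the 2 control sections, for each section (points) and the mean of each group (lines), with filled points and solid lines for vehicle and open points and dashed lines for entospletinib. In the medulla on day 14 the vehicle sections are at 1.63 and 1.69 for the 255 lower probes, and the entospletinib sections are at -0.0092 and -0.0093.

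The size of the entospletinib effect itself was tested between days. In the medulla, 33 probes had an effect on day 7 that differed from day 1 (0.164% of 20175). For 25 of them the effect was more negative on day 7, with a median log2 fold change of -2.15 on day 7 against 0.47 on day 1. Of these, 21 were among the 255 (1.26% of all probes), which the same day 7 sums chose. For the other 8 the effect was more positive, with medians of 0.46 and -1.67. The count was 12 without vehicle section 1, 5 without vehicle section 2, 8 without entospletinib section 1 and 16 without entospletinib section 2. Between days 7 and 14, 24 medullary probes differed (0.119%), all with a more negative effect on day 14, at a median of -2.24 against 0.014 on day 7. That count rose to 62 without vehicle section 1, was 0 without vehicle section 2 or entospletinib section 1, and was 19 without entospletinib section 2. In the cortex 0 probes differed in edgeR between days 7 and 1 or between days 14 and 7, with 363 and 786 at an unadjusted p below 0.05.

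The share of macrophage-leaning counts moved with the treatment in these tubule segments. Over the sections that were not of day 7, 355 probes were higher in macrophage than in tubule segments (1.76% of 20175) and 89 were higher in tubule segments (0.441%), and all 444 were counted in every day 7 tubule segment. Of the 355, 228 were also among the 863 medullary probes higher in vehicle than in control on day 14 (64.2%). Of the 89, 52 were among the 763 that were lower (58.4%). These lists are therefore not separate from the injury lists. The macrophage-leaning probes held 1.49% to 2.15% of the counts in the vehicle cortical segments, 0.902% to 1.42% with entospletinib and 0.865% to 1.09% in control. In the medulla they held 1.79% and 2.71% with vehicle, 0.861% and 1.08% with entospletinib, and 0.9946% and 0.9967% in control. Vehicle segments lay above all entospletinib segments in both regions, whereas entospletinib and control segments overlapped. The day 7 macrophage segments themselves held 7.45% to 9.00% with vehicle and 4.66% to 6.67% with entospletinib. Of the 355, 48 were called lower in the medullary tubules (13.5% against 1.26% of all probes) and 1 in the cortical tubules. Their median log2 fold change was -0.30 in the cortex and -0.21 in the medulla, and in the medulla it was 0.045 without vehicle section 1, -0.46 without vehicle section 2, -0.37 without entospletinib section 1 and -0.12 without entospletinib section 2. The 48 calls became 15, 44, 28 and 8 in the same order. Of the 255 probes, 48 were on this list (18.8% of the 255), with a median of -1.78. The 207 that were not on it had a median of -1.58 in the medulla and -0.65 in the cortex. In vehicle-treated kidneys the 255 together held 6.13% to 7.29% of the counts in cortical macrophage segments and 7.11% and 7.94% in medullary ones. In the vehicle tubule segments they held 2.65% to 3.72% in the cortex and 5.68% and 6.00% in the medulla. The part of macrophage RNA in the results for the 255, on the list or not, was not tested.

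The tubule-leaning probes moved the opposite way. They held 2.24% to 3.76% of the counts in the vehicle cortical segments and 4.27% to 5.59% in the entospletinib ones, with 4.15% to 5.23% in control. In the medulla they held 1.71% and 2.28% with vehicle, and 3.40% and 5.94% with entospletinib. Their median log2 fold change was 0.70 in the cortex and 1.54 in the medulla, and 6 of the 89 were called higher in the medulla (6.74% against 0.307% of all probes). Without entospletinib section 2 the medullary median was 0.57 with 0 called, and the cortical median was 0.43. Without vehicle section 1 the cortical median was 0.42. The cortex-leaning list had medians of 0.72 in the cortex and 1.09 in the medulla, and the latter was -0.12 without entospletinib section 2 and 1.68 without entospletinib section 1. Without vehicle section 1 the cortical median was 0.43. For the medulla-leaning list the medians were -0.14 and -0.052, and the latter was 0.62 without entospletinib section 2, 0.19 without vehicle section 2, -0.51 without vehicle section 1 and -1.82 without entospletinib section 1. The cortical median was -0.029 without vehicle section 1 and -0.23 without entospletinib section 1. The part that the position of the medullary segments had in these values was not tested.

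In the macrophage segments of the same regions of interest, 441 of 18541 probes (2.38%) were lower and 475 (2.56%) higher with entospletinib on day 7. Of the 255 probes, 110 were called lower there and 0 higher, with a median log2 fold change of -1.09, against 0.045 for all probes. Of the 62, 60 passed the filter on low counts in macrophage segments, 38 were called higher and the median was 1.38. RTS0076262 was lower in macrophage segments at -1.85 (SE 0.377, edgeR adjusted p = 0.00103). RTS0081140 was not called at -1.19 (SE 0.387, edgeR adjusted p = 0.0640). RTS0061334 and RTS0062202 were higher at 1.98 and 1.48 (SE 0.262 and 0.404, edgeR adjusted p = 3.59e-06 and 0.0176). These values rest on shallow sums over both regions. Sections 1 and 2 held 634090 and 117693 macrophage counts with entospletinib, against 1222388 and 1813973 with vehicle. In entospletinib section 2 the named probes had only 0 to 7 counts per macrophage segment. In entospletinib section 1, RTS0061334 had 19 to 48 counts and the other named probes only 2 to 8. The macrophage fit was not repeated with a section left out.

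RTS0070220, the most counted probe in 9 of the 12 segments, took 2.94% to 4.08% of the counts with vehicle and 2.41% to 3.14% with entospletinib, and it was called in neither region. In the medulla, RTS0064428 was at 102 and 67.2 CPM with vehicle and 26.7 and 22.4 CPM with entospletinib, RTS0065414 at 20.7 and 28.1 CPM against 77.8 and 104 CPM, and RTS0077684 at 33.6 and 42.9 CPM against 108 and 112 CPM, and all 3 were called. RTS0063488, at 56.8 and 20.5 CPM against 17.0 and 15.0 CPM, was not called (edgeR adjusted p = 0.0832).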

How the data were processed

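Probe counts were taken from the deposited files as the authors made them: counts of unique tags per probe and segment, not normalized, from the GeoMx NGS Pipeline (version 3.1.1.5 per the file headers, 1.1 per the labels and 2.2 in the deposited description). A probe that a file did not list had a count of 0. Tubule counts were summed per section, in each region and over both, so that each of the 14 sections of 7 groups was 1 replicate. The sums were tested with edgeR 4.0.16 (R 4.3.3) by robust quasi-likelihood fits with group as the only term, upper quartile normalization and filterByExpr (minimum count 10, minimum total 15), over all 20175 probes. The test between regions held 28 sums with section as a block. Total counts per region and section ranged from 4408390 to 14592944 on day 7. Standard errors (SE) were taken from the log2 fold change and its F statistic. Differences of effects were called by adjusted p alone. The number of sections, 2 per group, limits the precision. The functions were tested on simulated data.

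The 2 lower and 2 higher probes named are those with the smallest adjusted p of their direction, 1 per region where the region had a call and otherwise the next of the other region; the 5 closing probes were named for other comparisons of the series. The comparison, members and lists were chosen with earlier results of these data known. Alternatives were TMM, no filter, thinned sums, a replicate block, left-out sections, only day 7 sums, DESeq2 1.42.0 on sums or segments, and limma-voom 3.58.1 on segments. Those for the calls among lists, for the comparisons with control and between days, for the control sections, and without the medullary segment of entospletinib section 2 were chosen after seeing the data. The labels do not say whether same-numbered sections are related. The study's own fold changes were not used.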

Additional observations from a re-analysis of the deposited data

Results flagged for a closer look

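In the medulla, 16 probes had an entospletinib effect on day 7 that differed from the effect in the cortex, all of them lower in the medulla, by a test of the difference itself. Likewise, 33 medullary probes had an effect that differed between day 7 and day 1, and 24 between day 14 and day 7. Among 34 sets of 4 cortical values examined, 1 held a value far from the other 3: in the entospletinib cortex, the medulla-leaning probes took 0.0974% of the counts in 1 segment of section 2 and 0.164% to 0.175% in the others. Chance alone gives such a value in about 1 of 20 sets.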

How the results depend on the processing

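Removing the filter on low counts changed no call. The 12 cortical calls became 26 with a replicate block, 99 with only the day 7 sums, 51 with DESeq2 on sums, 130 with DESeq2 on segments and 71 with limma-voom, and 0 to 10 with 1 section left out. The 317 medullary calls became 699, 648 and 672 with only the day 7 sums and with DESeq2 on sums and on segments, and 58 to 434 with 1 section left out. The 134 pooled calls became 218, 217 and 302 under the same choices, and 11 to 81. The 16 probes that differed between regions became 0 without the section as a block (the replicate block of that test) and 9 with thinned sums, of which 1 was among the 16, and 0 to 9 with 1 section left out. Vehicle against control in the cortex gave 12 with TMM, 98 with the replicate block, 172 with DESeq2 and 2 to 16 with 1 section left out; in the medulla, DESeq2 gave 594 and the left-out sections 87 to 462. Entospletinib against control gave 2 with DESeq2 in each region, and 0 to 3 in the cortex and 0 to 4 in the medulla with 1 section left out. Differences between days in the cortex were 2 for days 7 and 1 with the block and 1 for days 14 and 7 with TMM. In the medulla, those between days 7 and 1 were 51 with TMM and 5 to 16 with 1 section left out, and those between days 14 and 7 were 151 with TMM, 81 with the block and 0 to 62. The causes were not tested.

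The pairing of section numbers is not given by the labels. Over the 21 pairs of groups, deviations of same-numbered sections correlated across probes between -0.52 and 0.65 in the cortex, with a median of 0.31. The medullary range was -0.51 to 0.62, with a median of 0.16. Correlations were above 0.1 for 15 pairs in the cortex and 11 in the medulla. For the day 7 groups they were 0.45 and 0.30. The numbers of the regions of interest in the titles run on across the groups within each section number. The block is given in this section only. In the medulla the block gave 103 higher and 284 lower.

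The medullary median of the macrophage-leaning list turned from -0.21 to 0.045 without vehicle section 1 and was -0.46 without vehicle section 2. That of the medulla-leaning list turned to 0.19 and 0.62 without vehicle or entospletinib section 2 and was -1.82 without entospletinib section 1. That of the cortex-leaning list turned to -0.12 without entospletinib section 2 and was 1.68 without section 1. Of 96 values of the 4 named probes, 0 changed sign, 10 gained a call and 3 lost it. Where 1 section was left out, the spread of the lone section was taken from the other groups. The named probes were chosen from this contrast, so their signs could hardly change.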
